A study of Mus musculus with 4 samples.

Results

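Transcripts of 34 genes of cholesterol and fatty acid metabolism were examined in ATDC5 cells after knockdown of Chadl. The genes were listed by name for their place in the pathways, with earlier results of these data known, and every probe set whose only gene symbol was one of them was taken. The annotation named 54 such probe sets for 30 of the 34 genes, out of 17097 genes and 45037 probe sets in all. The set divides into 17 enzymes of sterol synthesis (16 measured), 4 sterol regulators (3 measured), 5 genes of oxysterol and cholesterol disposal (4 measured) and 8 fatty acid synthesis genes (7 measured). Pmvk, Srebf1, Abca1 and Scd2 were not analysed here.

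ATDC5 is a mouse chondrogenic cell line that lays down cartilage-like matrix in differentiation medium. Controls (2 arrays) received a scrambled negative control duplex, and knockdown cells (2 arrays) received a duplex specific for Chadl, a leucine-rich repeat protein of cartilage. Both groups were given 30 nM of a 27-mer RNA duplex, were moved to differentiation medium after 16 h and were harvested at 5 days. A single Chadl duplex was reported as effective, so its effect rests on 1 sequence. The labels call the duplexes 27-mers and print a sequence of 25 bases, without saying how the lengths relate. That sequence is shown because all knockdown cells received it.
Chadl duplex sequence: acaagguagagaaacaaagagacca

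The targeted gene lay lower on both knockdown arrays without passing the test. Chadl gave log2 signals of 4.91 and 4.84 in control cells against 4.29 and 4.64 after knockdown, a difference of -0.41 (SE 0.12) that did not pass over all genes (adjusted p = 0.728, limma). Over genes, the SD of the difference between the knockdown arrays was 0.20, against 0.10 between the controls. The titles speak of biological replicates, but nothing states that they were separate cultures, and a p-value here covers only the spread between arrays, which may be technical. Of 8 chondrocyte markers the brightest were the collagen genes Col11a1 (9.60 and 9.64 in controls against 9.72 and 9.82) and Col2a1 (9.01 and 9.08 against 8.23 and 9.17) and the factor gene Sox9 (7.52 and 7.47 against 7.50 and 7.49). Of the 8, 6 were lower and 2 higher, with a median difference of -0.13 that was -0.34 in knockdown 1 and 0.09 in knockdown 2, and 0 were called. Hapln1 (-0.41), named after its value was seen, was the marker below both controls on both knockdown arrays. That is 12.5% of the 8, against 17.1% of all genes, and Hapln1 was dim (38.9th percentile of signal). Col11a1 was the marker above both controls on both knockdown arrays (12.5%, against 21.2%). The part of these markers in the members' values was not tested. In bulk RNA, fewer cells of a type and less RNA per cell cannot be told apart.

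Cells make cholesterol from acetyl-CoA through mevalonate, farnesyl diphosphate, squalene and lanosterol. Transcription of these enzymes is driven by SREBP factors, which the Insig proteins hold in the endoplasmic reticulum when sterols are plentiful. Excess cholesterol is exported by ABC transporters or hydroxylated to oxysterols, which activate LXR receptors. Fatty acid synthesis draws on the same acetyl-CoA, which Acly releases from citrate, and is also under SREBP control. In growth cartilage, cholesterol supply is known for its link to hedgehog signalling and to chondrocyte maturation.

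The sterol synthesis genes share promoter letters that their selection did not use. RefSeq entries (assembly GRCm38.p6) were found for 24 of the 34 genes, unmeasured members included, and the 250 bases upstream of the start were searched on both strands. The CCAAT box, whose letters are CCAAT and which binds the SREBP partner NF-Y, was present for 14 of 14 sterol synthesis genes and for the sterol regulator genes Insig1, Srebf1 and Srebf2. It was present for 1 of 5 fatty acid synthesis genes (Fasn) and for 0 of 2 oxysterol genes (Abca1 and Ch25h). Of 13605 array genes with an entry, 39.6% held it. Genes with several starts were counted if any window matched, and among genes with 1 entry the figures were 12 of 12 sterol synthesis genes and 36.4% of array genes. The GC box GGGCGG was held by 13 of the 14 sterol synthesis genes and by 53.5% of array genes, and the median GC content was 62.8% for sterol synthesis and 57.6% for array genes. The sterol regulatory element, searched as TCACNCCAC, was found in Hmgcs1 among the 24 genes (4.17%) and in 1.3% of array genes. No match of one motif overlapped a match of another in the members. A match is a run of letters and not evidence of binding.

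Upstream windows of 3 genes are printed, with CCAAT boxes and the sterol regulatory element in capitals on either strand. Hmgcs1 (chr13:119690101-119690350, plus strand) carries the element and 3 CCAAT boxes, Cyp51 (chr5:4104698-4104947, minus strand) carries 1 CCAAT box, and Acly (chr11:100528001-100528250, minus strand), the fatty acid gene with the largest difference, carries neither.
Hmgcs1: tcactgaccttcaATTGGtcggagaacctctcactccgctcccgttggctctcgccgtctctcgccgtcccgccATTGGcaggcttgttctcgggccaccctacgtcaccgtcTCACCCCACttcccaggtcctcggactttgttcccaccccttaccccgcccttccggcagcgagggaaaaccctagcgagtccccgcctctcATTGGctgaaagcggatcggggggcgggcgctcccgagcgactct
Cyp51: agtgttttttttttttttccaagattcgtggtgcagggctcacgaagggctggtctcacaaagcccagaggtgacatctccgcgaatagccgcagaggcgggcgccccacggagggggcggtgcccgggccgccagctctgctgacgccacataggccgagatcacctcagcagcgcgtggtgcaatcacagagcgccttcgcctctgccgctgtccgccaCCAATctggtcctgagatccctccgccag
Acly: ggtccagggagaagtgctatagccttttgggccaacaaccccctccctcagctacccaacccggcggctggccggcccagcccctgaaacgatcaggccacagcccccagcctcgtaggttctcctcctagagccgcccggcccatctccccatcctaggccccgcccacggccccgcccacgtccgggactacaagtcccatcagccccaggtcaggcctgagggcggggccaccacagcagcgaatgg

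No member passed the test over all genes. In limma, with Benjamini-Hochberg adjustment over 17097 genes, 0 of 30 members and 0 genes in all (0%) reached an adjusted p of 0.05. An unadjusted p under 0.05 was found for 3 members beside 6.67% of all genes. They were Cyp39a1 and Stard4 on the lower side (2.52% of all genes) and Acly on the higher (4.15%). For 8 members (26.7%, against 21.2% of all genes) the knockdown arrays were both above the controls, and for 7 (23.3%, against 17.1%) they were both below. The median difference over members was -0.03 and that over all genes 0.01. For 29 of 30 members the 95% confidence interval lay within 1.5-fold in either direction, as it did for 96.6% of all genes. These intervals rest on 2 arrays a group and on spreads shared across genes.

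**Figure D1:**
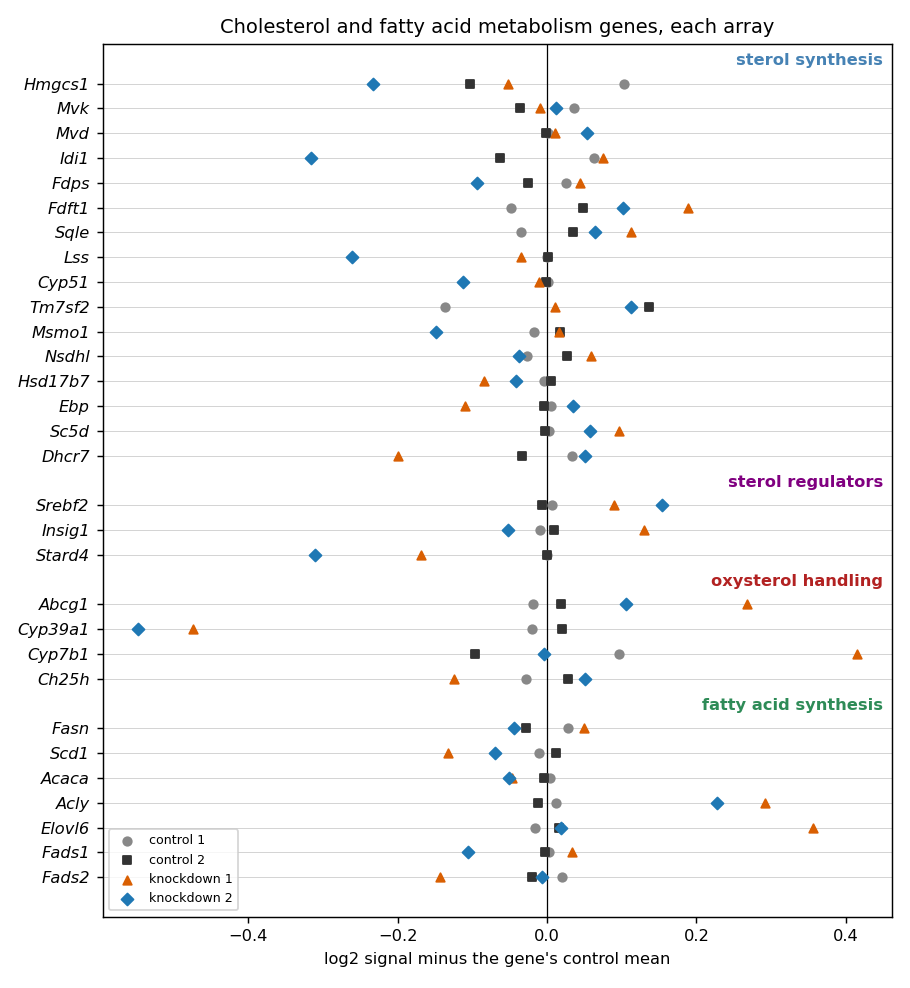
Log2 signal of each member on each of the 4 arrays, minus the mean of the 2 controls for that gene (x axis), with genes in pathway order (y axis). Controls lie close together for most genes, and both knockdown arrays lie left of the controls for Cyp39a1 (-0.47 and -0.55) and right of them for Acly (0.29 and 0.23).

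The upper, mevalonate part of the pathway showed small differences with no shared direction. Hmgcs1, which condenses acetyl groups into HMG-CoA, was read by 1 dim probe set at the 27.8th percentile of signal, and gave 4.08 and 3.88 in the controls against 3.93 and 3.75 after knockdown. Its groups overlapped (difference -0.14, 95% confidence interval -0.39 to 0.11). Mvk, which phosphorylates mevalonate, read 6.33 and 6.26 against 6.29 and 6.31 on its brightest probe set, within the control range. Its second probe set read 5.12 and 5.00 against 5.18 and 5.20, above both controls (difference 0.13). Mvd, which makes isopentenyl diphosphate, read 6.00 and 6.00 against 6.01 and 6.05, just above both controls.

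Idi1, the isomerase that follows, parted between the knockdown arrays. It read 8.31 and 8.18 in the controls against 8.32 in knockdown 1 and 7.93 in knockdown 2. Its second probe set showed the low value in knockdown 2 more weakly, at 7.73 and 7.80 against 7.89 and 7.71, and the probe sets differed in sign. Fdps, which builds farnesyl diphosphate, read 8.18 and 8.13 against 8.20 and 8.06, with overlapping groups.

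From squalene onward the steps also parted in direction. Fdft1, which joins farnesyl units into squalene, read 6.95 and 7.05 in the controls against 7.19 and 7.10 after knockdown (difference 0.15, SE 0.08). The next enzyme, the epoxidase Sqle, read 8.52 and 8.59 against 8.67 and 8.62. Both genes lay above the controls on both knockdown arrays, by margins near the spread between arrays.

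Lss, which closes the ring to lanosterol, lay the other way. It read 5.12 and 5.12 in the controls against 5.08 and 4.86, and most of its difference (-0.15, SE 0.10) came from knockdown 2. Cyp51, which begins demethylation of lanosterol, read 9.20 and 9.20 against 9.19 and 9.09 on its brightest probe set. A second Cyp51 probe set read 7.99 and 7.96 against 7.76 and 7.80 (difference -0.19, unadjusted p under 0.05 in the limma fit over probe sets, adjusted p = 0.638). The remaining one, at the 58.3rd percentile of probe set signal, differed by 0.09 the other way, with overlapping groups. The Cyp51 probe sets therefore do not give 1 direction.

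On their brightest probe sets the late steps differed little. Tm7sf2, a sterol reductase, differed by 0.06, and the demethylation genes Msmo1, Nsdhl and Hsd17b7 by -0.07, 0.01 and -0.06. Hsd17b7 was lower on all 3 of its probe sets (-0.10 to -0.06), and its brightest read 6.48 and 6.49 against 6.41 and 6.45. The isomerase gene Ebp read 9.62 and 9.61 against 9.51 and 9.65, above the controls in one knockdown array and below them in the other. Sc5d, a desaturase, differed by 0.08, and its other probe sets by -0.05 and 0.27. The last of these read 4.68 and 4.53 against 5.17 and 4.57, so its difference came from knockdown 1. Dhcr7, which makes cholesterol in the last step, read 5.45 and 5.39 against 5.22 and 5.47.

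As a group, sterol synthesis stayed near the level of all genes. Of 16 measured enzymes, 7 were higher and 9 lower, from -0.15 (Lss) to 0.15 (Fdft1), with 0 called by limma and 0 under an unadjusted p of 0.05. Their median difference was -0.03, and each knockdown array alone gave a median of 0.01 (knockdown 1) and -0.01 (knockdown 2). Over all genes the medians were 0.01, -0.0031 and 0.01. Groups did not overlap for 4 enzymes on the higher side (25%, against 21.2% of all genes) and 3 on the lower (18.8%, against 17.1%). Each of the 16 confidence intervals lay within 1.5-fold, and 13 differences were under 1.1-fold (81.2%, against 80.5% of all genes).

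**Figure D2:**
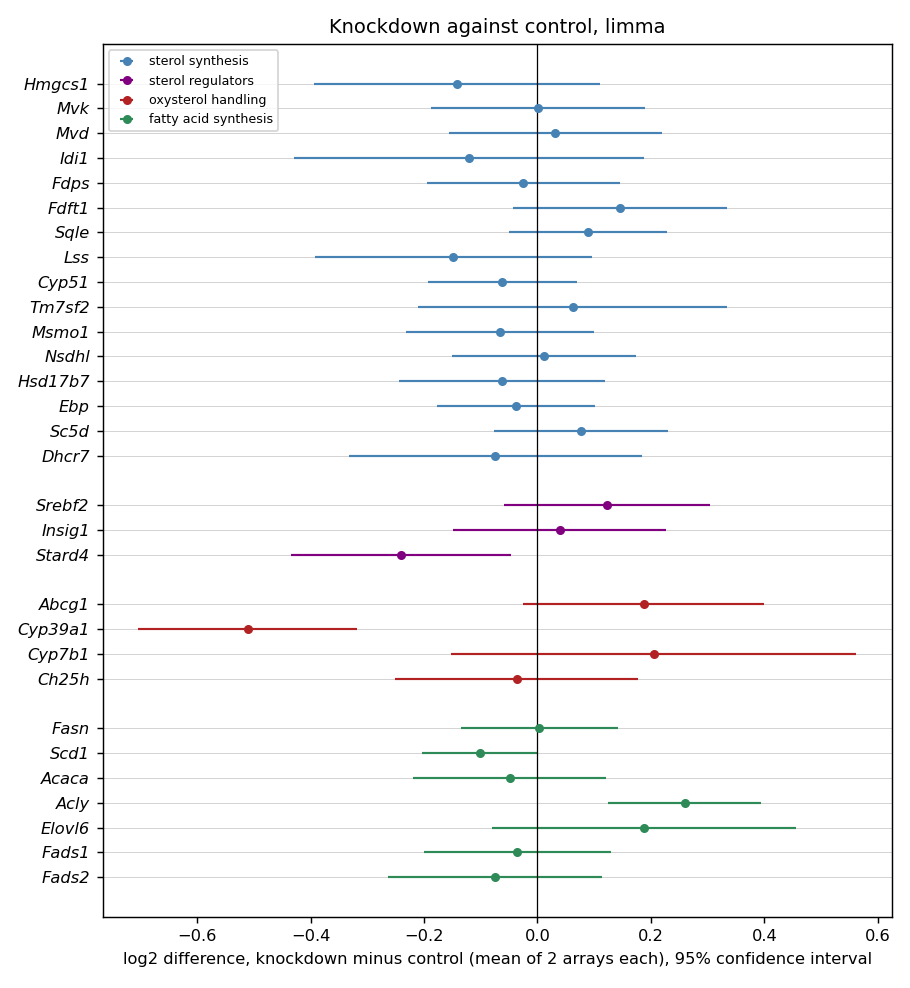
Log2 difference of knockdown minus control for each member (x axis), with its 95% confidence interval from limma over 2 arrays a group, coloured by function. Intervals cross 0 for 27 of 30 members, and those of Cyp39a1 (-0.70 to -0.32), Stard4 (-0.43 to -0.05) and Acly (0.12 to 0.39) do not.

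Among the regulators, Srebf2, which encodes the SREBP form that drives sterol enzymes, lay slightly higher. It read 6.58 and 6.57 in the controls against 6.66 and 6.73 after knockdown, 0.12 higher (95% confidence interval -0.06 to 0.30), and its other probe set was higher by 0.07. Insig1, the sterol-responsive retention factor, read 8.04 and 8.06 against 8.18 and 8.00, on either side of the controls.

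Stard4, which carries cholesterol between membranes, depended on the probe set. The brightest read 7.12 and 7.11 in the controls against 6.95 and 6.80, a difference of -0.24 (SE 0.08, unadjusted p = 0.0222, adjusted p = 0.728, limma). The other probe sets differed by 0.07 and 0.14 in the opposite direction, and the latter read 5.68 and 5.79 against 5.74 and 6.02. The transcript's direction was therefore not settled by these arrays.

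Cyp39a1 showed the largest difference of the set. It was listed with its value in these arrays known, so its rank and p are a description and not independent evidence. Its product hydroxylates oxysterols on the route to bile acids. It read 6.37 and 6.41 in the controls against 5.92 and 5.85 after knockdown. Both knockdown arrays lay well below both controls and close to each other. This is 1.42-fold lower, a log2 difference of -0.51 (SE 0.08) whose 95% confidence interval runs from -0.70 to -0.32. It ranked 17th of 17097 genes by unadjusted p (0.000517) and did not pass adjustment (adjusted p = 0.506, limma). Taken singly, knockdown 2 differed from the control mean by -0.55 and knockdown 1 by -0.47. The gene had 1 probe set, so no second reading was at hand.

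Cyp7b1 and Abcg1 lay on the higher side. Cyp7b1, a related oxysterol hydroxylase, read 4.13 and 3.94 in the controls against 4.45 and 4.03. It lay high in knockdown 1 and within the controls in knockdown 2. Its 3 probe sets were higher by 0.07 to 0.23 but dim, at percentiles 46.6, 10.6 and 6.54 of probe set signal. Abcg1, which exports cholesterol to lipoproteins and is a target of LXR, read 6.28 and 6.32 against 6.57 and 6.41. Its difference was 0.19 (95% confidence interval -0.02 to 0.40), with both probe sets higher.

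Ch25h, which hydroxylates cholesterol and is known as an interferon-induced gene, read 3.98 and 4.04 against 3.89 and 4.06. Its groups overlapped (difference -0.04, 95% confidence interval -0.25 to 0.18), at the 30.8th percentile of signal. On the same arrays, 10 of 12 listed interferon response genes were measured. All 10 lay above both controls on both knockdown arrays (100%, against 21.2% of all genes). The list was chosen with earlier results of these data known, so this share is a description and not independent evidence. The median difference of the 10 genes was 0.23, and 0 were called by limma. Their median signal was 9.01 in both controls, 9.43 in knockdown 1 and 9.14 in knockdown 2. The brightest, Ifit3, Usp18 and Ifit1, differed by 0.28, 0.17 and 0.27. The part of an interferon response in the members' values was not tested. The 4 oxysterol genes had a median of 0.08, with 2 higher and 2 lower.

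**Figure D3:**
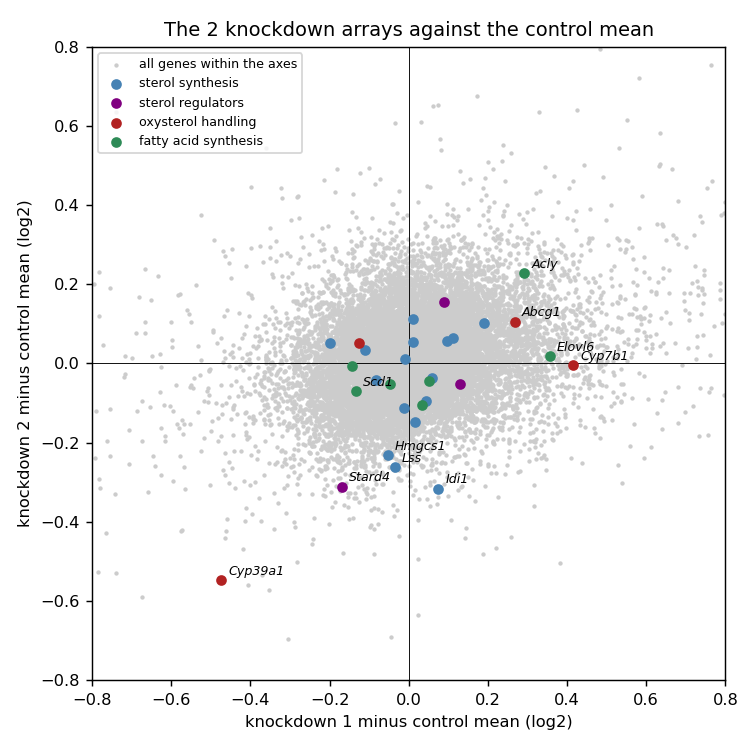
Difference from the control mean in knockdown 1 (x axis) against that in knockdown 2 (y axis), both log2, for members (coloured) and all other genes within the axes (grey). Cyp39a1 lies at the lower left edge of the cloud (-0.47 and -0.55) and Acly to the upper right (0.29 and 0.23), while Elovl6 and Cyp7b1 lie along the knockdown 1 axis and Idi1 (0.07 and -0.32) below the centre.

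Acly was the clearest member on the higher side. It encodes ATP citrate lyase, which supplies cytosolic acetyl-CoA to both pathways. It read 8.48 and 8.46 in the controls against 8.76 and 8.70 after knockdown. Both knockdown arrays lay above both controls, and the gap exceeded the spread within either pair. This is 1.2-fold higher, a log2 difference of 0.26 (SE 0.06) whose 95% confidence interval runs from 0.12 to 0.39 (unadjusted p = 0.00299, adjusted p = 0.615, limma). A second probe set read 6.27 and 6.27 against 6.36 and 6.42, a difference of 0.12.

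The enzymes that use its product showed smaller differences. Acaca, which carboxylates acetyl-CoA to malonyl-CoA, read 6.94 and 6.94 against 6.89 and 6.89. Fasn, the fatty acid synthase, read 8.99 and 8.93 against 9.01 and 8.92, with overlapping groups. The confidence intervals of Acaca (-0.22 to 0.12) and Fasn (-0.14 to 0.14) lay below the point value of Acly, although the difference between these genes was not tested.

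Elongation and desaturation genes differed among themselves. Elovl6, which lengthens palmitate, read 7.95 and 7.98 in the controls against 8.32 in knockdown 1 and 7.98 in knockdown 2, so its difference (0.19, SE 0.11) came from 1 array. Scd1, the desaturase that makes oleate, read 10.02 and 10.04 against 9.90 and 9.96. Both knockdown arrays lay below both controls (difference -0.10, 95% confidence interval -0.20 to 0.00020, unadjusted p = 0.0504, adjusted p = 0.744, limma), and the second probe set differed by -0.16. The polyunsaturated fatty acid desaturase genes Fads1 and Fads2 differed by -0.04 and -0.08, with overlapping groups and probe sets of both signs. Of the 7 genes 3 were higher and 4 lower, with a median of -0.04.

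Agreement between probe sets could be checked for 17 members. For 6 of them (35.3%) the probe sets differed in sign, which was so for 54.2% of the 7180 genes in all with several probe sets. They were Idi1, Cyp51, Sc5d, Stard4, Fads1 and Fads2. Of the 54 member probe sets, 14 (25.9%) were above the controls in both knockdown arrays and 11 (20.4%) were below. Over all 45037 probe sets the shares were 18.6% and 19.9%. In limma over all probe sets, 0 of the 54 passed (0.00222% in all) and 5 had an unadjusted p under 0.05 (9.26%, against 7.26%), read from Cyp51, Stard4, Cyp39a1, Scd1 and Acly.

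**Figure D4:**
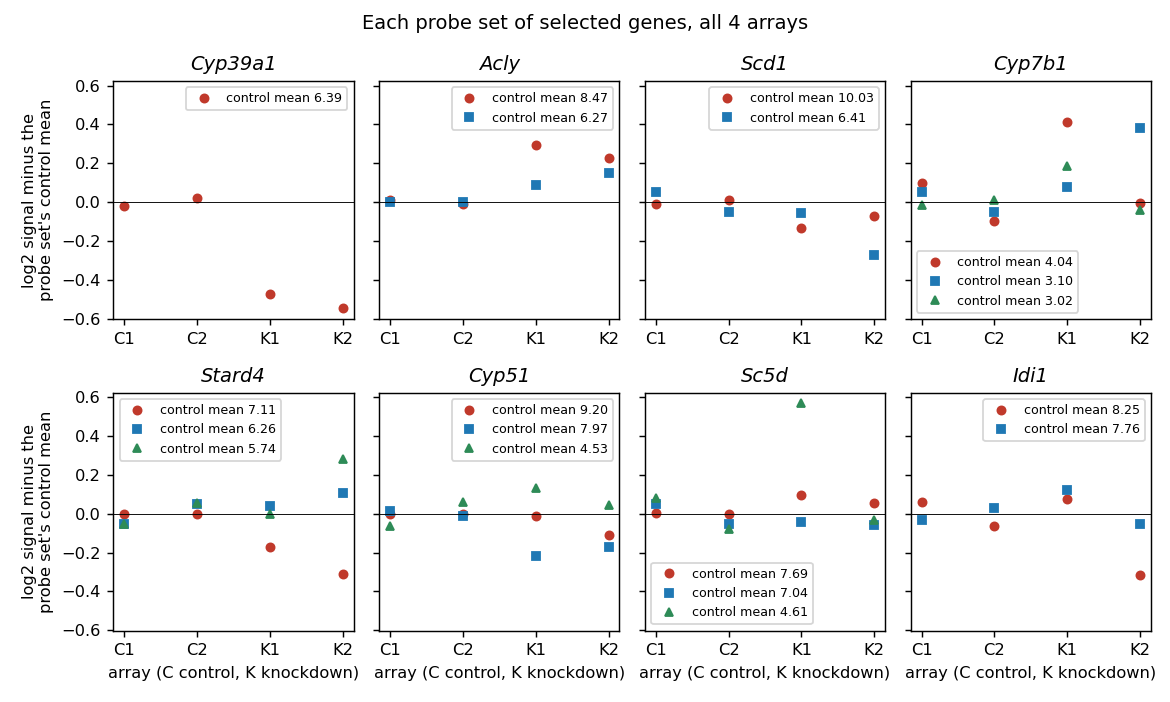
Log2 signal of every probe set of 8 members on the 4 arrays (x axis: C control, K knockdown), minus the control mean of that probe set (y axis), with the control mean in the key. Both Acly probe sets lie above 0 on both knockdown arrays, while those of Stard4, Cyp51, Sc5d and Idi1 part in direction.

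Further genes of the same pathways were also examined. Of 18 further sterol genes measured, 0 were called by limma and 2 were higher with an unadjusted p under 0.05 (11.1%, beside 4.15% of all genes), with 7 higher and 11 lower in all and a median of -0.02. They were Hsd3b7, of the bile acid route (5.23 and 5.20 against 5.37 and 5.47, difference 0.21), and Mylip, the LXR-induced ligase that degrades the LDL receptor (9.20 and 9.14 against 9.44 and 9.25, difference 0.18). Both lay above the controls on both knockdown arrays, as did 5 of the 18 in all (27.8%, against 21.2% of all genes). On the other side, 6 of the 18 lay below the controls on both (33.3%, against 17.1%). Of 20 further fatty acid genes, 14 were higher and 6 lower, with a median of 0.02 and 0 called. With an unadjusted p under 0.05 in limma, 2 were higher (10%, beside 4.15%). These were Acadm, a dehydrogenase of fatty acid oxidation (8.11 and 8.04 against 8.44 and 8.21), and Mid1ip1, an activator of acetyl-CoA carboxylase (7.40 and 7.44 against 7.65 and 7.58). Neither list had a member lower at an unadjusted p of 0.05, beside 2.52% of all genes.

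Fat cell and macrophage markers stood beside these values as follows. Of 6 adipocyte markers measured, 3 lay above both controls (50%, against 21.2% of all genes) and 1 below (16.7%, against 17.1%), and 0 were called. Their median signal was 4.61 in both controls, 4.66 in knockdown 1 and 4.65 in knockdown 2. The brightest were Lpl (6.94 and 6.77 against 7.34 and 6.72), Pparg (difference 0.10) and Retn (0.07). Of the 6, 5 were higher and 1 lower, with a median difference of 0.08. The defining adipocyte genes Adipoq and Fabp4, named after their values were seen, were dim, with signal percentiles of 7.1 and 5.21. They parted in direction. Adipoq differed by -0.17, below both controls on both knockdown arrays. Fabp4 differed by 0.20, above both controls (unadjusted p = 0.0265, adjusted p = 0.728, limma). Macrophage markers (6) had a median percentile of 8.62, with Csf1r, Tyrobp and Cd68 brightest and differing by -0.09, -0.04 and 0.14. Of the 6, 4 were higher and 2 lower, with a median difference of 0.03. Lyz2 (0.31), named after its value was seen, lay above both controls on both knockdown arrays (1 of 6, 16.7%, against 21.2%). Its signal was dim (4.87th percentile), and it differed from the control mean by 0.08 in knockdown 1 and 0.54 in knockdown 2. The part of other cell types in the Acly and Cyp39a1 values was not tested.

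The knockdown arrays taken singly named different members. With knockdown 1 left out, limma passed 4 of 30 members (13.3%, against 3.28% of all genes and 5.99% of genes at or above the median signal), which were Idi1, Stard4 and Cyp39a1 lower and Acly higher. With knockdown 2 left out it passed 7 (23.3%, against 15.1% and 24.7%), with Ebp, Cyp39a1 and Scd1 lower and Abcg1, Cyp7b1, Acly and Elovl6 higher. Of the 30 members 27 lay at or above the median signal. Cyp39a1 (adjusted p = 0.000681 and 0.00041) and Acly (adjusted p = 0.00636 and 0.000144) passed both times. These fits take the lone knockdown array to vary like the controls, which the spread of the knockdown pair exceeded 1.93-fold, so they describe arrays and not a group. They also share both control arrays.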

How the data were processed

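RNA of 2 control and 2 knockdown samples was profiled on Affymetrix arrays. Titles gave the groups. Per the submitters' processing notes the authors used RMA, and the deposited table holds its log2 value for each probe set. RMA makes the arrays' distributions alike and compresses the change of dim genes. The log base was read from the values (2.17 to 12.72), and the software version is not given in the sources used here. All 4 columns were used.

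From 45141 probe sets, 104 array controls were left out. The platform annotation, which can be old, gave 1 symbol to 28898. Each gene was read by its brightest such probe set, with no filter on dim genes. The test was limma's lmFit and eBayes with a trend (version 3.58.1, R 4.3.3; 2 residual and 4.45 prior degrees of freedom) at an adjusted p of 0.05, two-sided. The step was tested on simulated data. Precision is limited by 2 arrays a group.

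Named genes were Chadl, all measured members, up to 5 genes with the smallest unadjusted p in each further pathway list and the 3 brightest of each marker and interferon list. The members and lists were chosen with earlier results of these data known, Cyp39a1 included. Alternatives were quantile normalization, median centring, a filter at the 40th percentile, the mean of probe sets, eBayes without trend or in robust form, a replicate block, all probe sets and leaving out each array. Promoter entries and their build came from RefSeq.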

Additional observations from a re-analysis of the deposited data

How the results depend on the processing

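With 2 arrays a group the adjusted p of single members says little about stability. No member was called under quantile normalization, median centring, the filter on dim genes, the mean of probe sets, no trend or robust eBayes. Over all probe sets 1 passed, and 0 of the member probe sets did. Replicate numbers share only a number (correlation of same-numbered deviations -0.0041 over genes), and the replicate block left 0 members and 0 genes called. Leaving out each array gave 0 to 7 called members and 0 to 2584 called genes, the largest without knockdown 2 and 561 without knockdown 1.

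The sterol synthesis median was -0.0557 with median centring, which moved all genes by -0.0245, and ran from -0.0456 to 0.0108 over left-out arrays. The oxysterol median was -0.162 without dim genes, which drops Cyp7b1 and Ch25h, and ran from 0.0233 to 0.0718. The fatty acid median ran from -0.0438 to 0.0335. Signs turned for Mvk (-0.0158) and Nsdhl (-0.0088) with quantile normalization, for Mvk (-0.023), Nsdhl (-0.0134) and Fasn (-0.0213) with median centring, and for Fads1 (0.021) with the mean of probe sets. Median centring moved every gene by the same -0.0245, and the Fads1 probe sets differed by -0.036 and 0.0781. The cause of the turns with quantile normalization was not tested.

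Over left-out arrays these uncalled differences also turned sign. Mvk ran from -0.0349 to 0.0378, Idi1 from -0.3164 to 0.0747, Fdps from -0.0938 to 0.0443, Tm7sf2 from -0.074 to 0.1983 and Msmo1 from -0.1489 to 0.0161. Nsdhl ran from -0.037 to 0.0592, Ebp from -0.11 to 0.0345, Dhcr7 from -0.1995 to 0.051 and Insig1 from -0.0525 to 0.1303. Cyp7b1 ran from -0.0045 to 0.4146, Ch25h from -0.1246 to 0.0512, Fasn from -0.0438 to 0.0501 and Fads1 from -0.1056 to 0.0335. Cyp39a1 stayed between -0.5474 and -0.4746 and Acly between 0.2276 and 0.2917.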
